A study of Mus musculus with 6 samples.

Results

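Chemokines and their receptors were followed in the whole lung of mice that lack lincRNA-Cox2. The genes were taken by symbol from a list of CC, CXC, CX3C and XC ligands and chemokine receptors that leaves out the platelet chemokines Pf4 and Ppbp and the receptors Cxcr2, Ccr2 and Cx3cr1. All 38 listed genes, 30 ligands and 8 receptors, were found among the 20494 gene rows of the authors' deposited table, and 37 of them had an adjusted p. The exception was Cxcl11, whose mean was too low for one. RNA was sequenced from untreated, 4-month-old male C57BL/6 animals, 3 of them wild type and 3 with the genotype lincRNA-Cox2 KO, and the labels name no further allele or agent in either group. How the knockout allele was made is not given in the sources used here. In the authors' deposited table lincRNA-Cox2 itself stood at 311 normalized counts in wild type and 0.666 in knockout, and its neighbour Ptgs2, the inducible cyclooxygenase gene, was 9.83-fold lower (adjusted p = 9.55e-11).

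Chemokines are small secreted proteins that steer leukocytes along concentration gradients by binding receptors coupled to inhibitory G proteins. They are classed by the spacing of their first cysteines. CXC ligands that carry the residues Glu, Leu and Arg before that pair, called ELR ligands, draw neutrophils through Cxcr2, the interferon-inducible CXC ligands draw activated T cells and natural killer cells through Cxcr3, and most CC ligands act on monocytes, eosinophils, dendritic cells or lymphocytes. Atypical receptors bind chemokines without coupling to G proteins and remove them from the tissue. Several ligands are stored as gene groups of close paralogs, and many of the inflammatory ones are induced by NF-kB and have short-lived mRNAs.

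The listed ELR ligand genes lie in a group on chromosome 5 (mm10, 90759360 to 90905938), all on the plus strand. The order is Cxcl5, Ppbp, Pf4, Cxcl3, Cxcl15, Cxcl1 and Cxcl2, where Ppbp and Pf4 are platelet chemokine genes outside the list. Promoters of ELR ligands are shown because the group holds Cxcl2, the called gene of the list, and its close paralogs. Each line gives the 110 bases before the RefSeq start site (GRCm38.p6), 5′ to 3′ on the gene's strand. Capitals mark matches, on either strand, to the NF-kB motif GGNNTTTCC or to the TATA box letters TATAAA.
Cxcl2, chr5:90903789-90903898, plus strand: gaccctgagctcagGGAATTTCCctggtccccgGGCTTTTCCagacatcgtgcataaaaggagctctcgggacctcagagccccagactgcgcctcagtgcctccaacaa
Cxcl1, chr5:90891135-90891244, plus strand: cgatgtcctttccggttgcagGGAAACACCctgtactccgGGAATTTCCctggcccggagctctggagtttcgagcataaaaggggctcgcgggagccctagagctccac
Cxcl3, chr5:90785991-90786100, plus strand: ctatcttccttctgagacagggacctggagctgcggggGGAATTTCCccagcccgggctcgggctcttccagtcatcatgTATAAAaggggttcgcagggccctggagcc
Cxcl15, chr5:90794424-90794533, plus strand: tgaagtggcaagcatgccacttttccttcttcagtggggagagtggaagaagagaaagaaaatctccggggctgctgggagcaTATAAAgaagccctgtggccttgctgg

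Cxcl1, Cxcl2 and Cxcl3 held the same 9 letters, GGAATTTCC, and Cxcl15 held no match to GGNNTTTCC in its window of 250 bases before to 50 after the start. The Cxcl2 and Cxcl1 promoters each held a second match. For comparison, the interferon-inducible ligands Cxcl10 and Cxcl9 are shown over 110 bases each. In Cxcl10 the capitals mark a match to the interferon-stimulated response letters GAAANNGAA followed by the NF-kB motif read on the opposite strand. In Cxcl9 they mark a pair of NF-kB motifs. Cxcl9 also held a match to GAAANNGAA, at -175, outside the stretch shown.
Cxcl10, chr5:92349005-92349114, minus strand: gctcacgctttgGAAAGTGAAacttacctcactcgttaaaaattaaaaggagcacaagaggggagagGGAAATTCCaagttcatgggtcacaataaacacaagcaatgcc
Cxcl9, chr5:92328110-92328219, minus strand: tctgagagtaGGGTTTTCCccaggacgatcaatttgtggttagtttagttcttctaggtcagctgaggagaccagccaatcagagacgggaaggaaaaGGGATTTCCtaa

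RefSeq promoters were matched for 27 of the 38 genes, in 28 windows of that same length. The motif GGNNTTTCC was present in 7 of the 28 windows (25.0%), against 5.82% of all 32851 promoters of the RefSeq table, and the 7 genes were Cxcl1, Cxcl2, Cxcl3, Cxcl9, Cxcl10, Ccl20 and Ccl9. The exact letters GGAATTTCC, singled out after the Cxcl2 match was seen, were present in 4 of these genes on either strand, the fourth being Cxcl10, and in 0.317% of all promoters. The letters GAAANNGAA were found in 5 windows (8.56% of all promoters hold them), TTCNNNGAA, the interferon-gamma activated site, in 3 (8.30%), and the AP-1 letters TGANTCA in 3 (7.81%). The cyclic AMP response letters TGACGTCA were found in 0 of the 28 (1.79%), and TATAAA in 10 (13.6%). A match describes these letters only, and binding was not measured.

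The normalized group means, which are the authors' gene counts divided by a size factor for each library, summed to 3.71e+07 in wild type and 3.68e+07 in knockout. Values of single libraries are not in the table, so differences are judged by the authors' DESeq2 comparison, and a gene was called where its adjusted p was under 0.05. Low group means are sums of whole reads times 1 fixed value per library, and where exactly 1 set of reads gives the printed mean, the value of each library could be derived. This was so for 10 of the 38 genes. These libraries cannot be tied to a mouse. They carry the letters A, B and C, which have no shared meaning between the genotypes. Lung markers were high in both groups, the 6 alveolar type 2 markers summing to 335137 normalized counts in wild type and 343966 in knockout. In whole tissue, fewer cells of a type and less RNA per cell cannot be told apart.

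Across the 37 tested genes, 1 was called, Cxcl2, which was lower in knockout. In the table as a whole, 1.09% of tested rows were called. By their group means 26 of the 37 were lower in knockout and 11 higher, where 50.6% of all tested rows were lower. The median log2 ratio of knockout over wild type was -0.07 over these genes and -0.0013 over all tested rows. At an unadjusted p under 0.05 there were 9 genes, against 8.47% of all tested rows. Of the 9, 5 were lower (Cxcl2, Cxcl1, Ackr3, Ccr7 and Cxcr4; 4.04% of all tested rows were lower at this p) and 4 were higher (Cxcl13, Ccr1, Cxcr6 and Cxcl15; 4.43%).

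**Figure D1:**
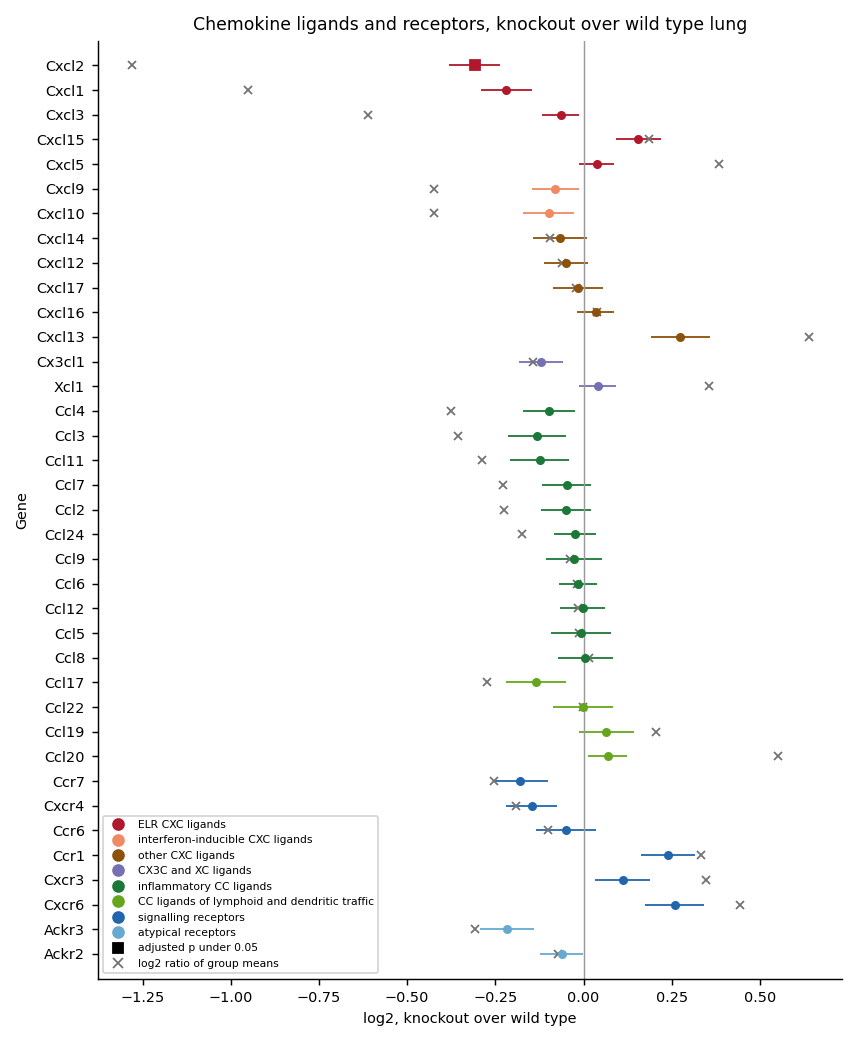
The authors' shrunken log2 fold change, knockout over wild type, with bars of 1 standard error (colored symbols, by role) and the log2 ratio of the group means (grey crosses) for the 37 tested genes. The square is Cxcl2 at -0.31, the called gene; crosses lie far outside the colored symbols for low genes such as Cxcl1, Cxcl3, Cxcl5 and Ccl20.

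Cxcl2, a neutrophil chemokine made by macrophages and other cells on inflammatory stimulation, had a mean of 155 normalized counts in wild type and 63.7 in knockout. It fell 2.43-fold in the authors' deposited table, with a shrunken log2 fold change of -0.31 ± 0.073 (SE) and an adjusted p of 0.00504. The 3 knockout libraries held 63, 79 and 51 Cxcl2 reads, or 61.5, 77.4 and 52.2 normalized counts. For wild type 3 sets of reads give the printed mean. Library A lay between 207 and 242 normalized counts in all of them, library B between 55.6 and 230, and library C between 27.0 and 166. Wild type library A therefore stood above every knockout library in each set, while in 2 of the 3 sets another wild type library lay among or below the knockout values. Left out in turn, over all these sets, each of the 6 libraries gave a lower knockout mean, from 1.74-fold without wild type A to 3.43-fold without wild type C.

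Cxcl1, the other main ligand of Cxcr2 in the mouse, starts at -12.6 kb from the Cxcl2 start and had means of 90.6 and 46.9 normalized counts. Its difference was not called (shrunken log2 fold change -0.22 ± 0.072 SE, unadjusted p = 0.00227, adjusted p = 0.119 in the authors' deposited table). Its knockout libraries held 39, 62 and 41 reads, and 4 sets of reads give the wild type mean. Over these sets the log2 ratio without 1 library ran from -1.52 to 2.85, and it turned positive in at least 1 set without wild type A and without wild type C. Cxcl3, a close paralog of both, was far less abundant, with means of 20.2 ± 3.28 in wild type and 13.2 ± 3.96 in knockout (SD, n = 3 each). Its wild type libraries stood at 18.7, 17.9 and 23.9 normalized counts and its knockout libraries at 17.6, 9.80 and 12.3. Every knockout library lay below every wild type library, by a narrow margin. Such a separation, in either direction, was seen in 16.5% of the 1886 tested rows whose libraries could be derived, and Cxcl3 had an adjusted p of 0.891 in the authors' deposited table.

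The remaining ELR ligands had higher knockout means. Cxcl15, called lungkine and made by airway and alveolar epithelium, had means of 34009 and 38693 normalized counts, a 1.14-fold difference that was not called (shrunken log2 fold change 0.16 ± 0.063 SE, unadjusted p = 0.0141, adjusted p = 0.346 in the authors' deposited table). Cxcl5, an epithelial neutrophil chemokine, had the lowest mean over both genotypes of the 37 tested genes, with wild type libraries at 14.8, 11.9 and 13.5 and knockout libraries at 24.4, 11.8 and 16.4. The groups overlapped, and knockout libraries A and C were above all the wild type values. Within the chromosome 5 group the log2 ratio of the means was thus -1.28 for Cxcl2, -0.95 for Cxcl1 and -0.61 for Cxcl3, and 0.19 for Cxcl15 and 0.38 for Cxcl5. The platelet chemokine genes between them, Ppbp and Pf4, had log2 ratios of 0.28 and 0.06 (adjusted p = 0.930 and 0.997 in the authors' deposited table).

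**Figure D2:**
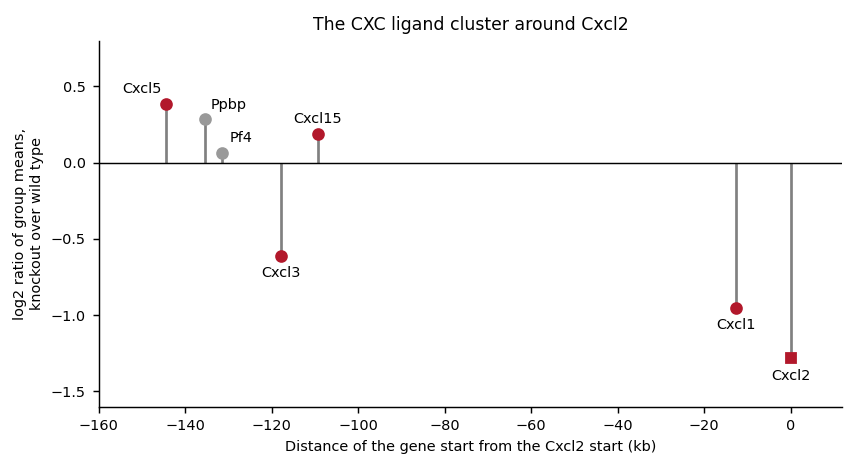
The log2 ratio of group means, knockout over wild type, for the 7 genes of the chromosome 5 group against the distance of each gene start from the Cxcl2 start (kb). Red symbols are listed genes, grey symbols Ppbp and Pf4, and the square is the called gene; Cxcl2, Cxcl1 and Cxcl3 lie below 0 and the others above it.

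The receptor of the ELR ligands, Cxcr2, is left out of the list by its rule. It was called higher in knockout (means of 365 and 732, adjusted p = 7.24e-10 in the authors' deposited table). Most markers of neutrophils, the cells that carry Cxcr2, were higher as well. Of the 12 fixed markers 11 were in the table and 9 were tested. Of the 9, 8 had higher means and 6 were called, all higher, where 1.09% of all tested rows were called. The marker with a lower mean was Ltf (2449 and 1366, adjusted p = 0.885 in the authors' DESeq2 comparison). The markers summed to 9245 normalized counts in wild type and 12288 in knockout, with no marker in the table at 0 in either group. The part of these cells in the levels of the chemokine genes was not tested. Markers of monocytes summed to 69119 and 55389, a difference carried mainly by Nr4a1, which was called lower (14598 and 4408). Ace made up most of both sums (44059 and 39595), so the sums say little about the other markers. Of the 7 monocyte markers, 4 had higher means, and the median log2 ratio was 0.09. At an unadjusted p under 0.05 by DESeq2, Ly6c2 and Ccr2 were higher, and Ace and Nr4a1 lower (4.43% and 4.04% of all tested rows). Cx3cr1, Fcgr4 and Csf1r had log2 ratios of 0.17, 0.09 and -0.01. Which cells gave the Ace and Nr4a1 reads was not tested. Markers of alveolar macrophages summed to 31874 and 34142, with 0 called and 1 higher at an unadjusted p under 0.05 by DESeq2. Both cell types can make Cxcl1 and Cxcl2, and their part was not tested either.

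Inducers of chemokines, other regulators of the same pathways, regulators of mRNA decay and Ptgs2 were counted as a further list. It mixes activators and inhibitors, so its directions do not sum to less or more induction. Of its 30 tested genes, 22 had lower and 8 higher knockout means, where 50.6% of all tested rows were lower. The list was written with earlier results of these data known. Called were 5 of the 30, all lower in knockout, where 1.09% of all tested rows were called. They were Ptgs2, Atf3, Egr1, Nfkbiz and Zfp36. Nfkbiz, an NF-kB cofactor, was 1.43-fold lower and Zfp36, which binds AU-rich mRNAs such as those of Cxcl1 and Cxcl2 and speeds their decay, 1.98-fold lower in the authors' deposited table (adjusted p = 0.00719 and 0.00746). A further 7 were lower and 1 higher at an unadjusted p under 0.05, where 4.04% of all tested rows were lower and 4.43% higher. The median log2 ratio over the 30 was -0.12.

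The interferon-inducible ligands were low and did not pass the test. Cxcl9, induced mainly by interferon gamma, had wild type libraries at 55.1, 84.4 and 43.7 normalized counts and knockout libraries at 45.8, 29.4 and 61.4. The groups overlapped, with means of 61.1 ± 21.02 and 45.5 ± 16.0 (SD, n = 3 each) and an adjusted p of 0.896 in the authors' deposited table. Cxcl10, induced by both types of interferon, had means of 86.2 and 64.3, and so a log2 ratio of -0.42 like that of Cxcl9 (adjusted p = 0.850 in the authors' deposited table). Without knockout library C it reached 0.08 under 1 of the sets of reads its means allow. Cxcl11 had 1, 0 and 2 reads in the wild type libraries and 0 in all knockout libraries. Both are at or under 3 reads for a group, so no fold is given. In GENCODE M21 this gene, at chromosome 5 from 92359544 to 92365485, is annotated as a polymorphic pseudogene. Cxcr3, the receptor shared by these ligands, had means of 85.0 and 108 (adjusted p = 0.843 in the authors' deposited table).

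A few abundant ligands, above all Cxcl15, made up most of the summed counts of the listed genes, and none of them was called. Per kb of exon, Cxcl15 was the highest of the 38 genes in wild type (15989 normalized counts per kb), followed by Ccl6, a macrophage and eosinophil chemokine (3875), the receptor Cxcr4 (2366), the mucosal ligand Cxcl17 (1997) and Cxcl14 (1805). Unscaled, Cxcl15 alone made up 42.0% of the summed normalized counts of all 38 genes in wild type and 46.5% in knockout. The next per kb were Cxcl12, the stromal ligand of Cxcr4 that retains blood progenitors in their niche (1491), Cx3cl1, the membrane-bound fractalkine of endothelium and epithelium (1080), and Cxcl16, the membrane-bound ligand of Cxcr6 (1063). Values per kb rest on all annotated exons of a gene, which need not all be used in lung, and have no library spread at these levels, so the order of close neighbours such as Cx3cl1 and Cxcl16 is not resolved. The low end held Cxcl3 (5.77), Cxcl5 (7.19), Ccl20 (19.0) and Cxcl9 (20.3), above Cxcl11 (0.269).

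**Figure D3:**
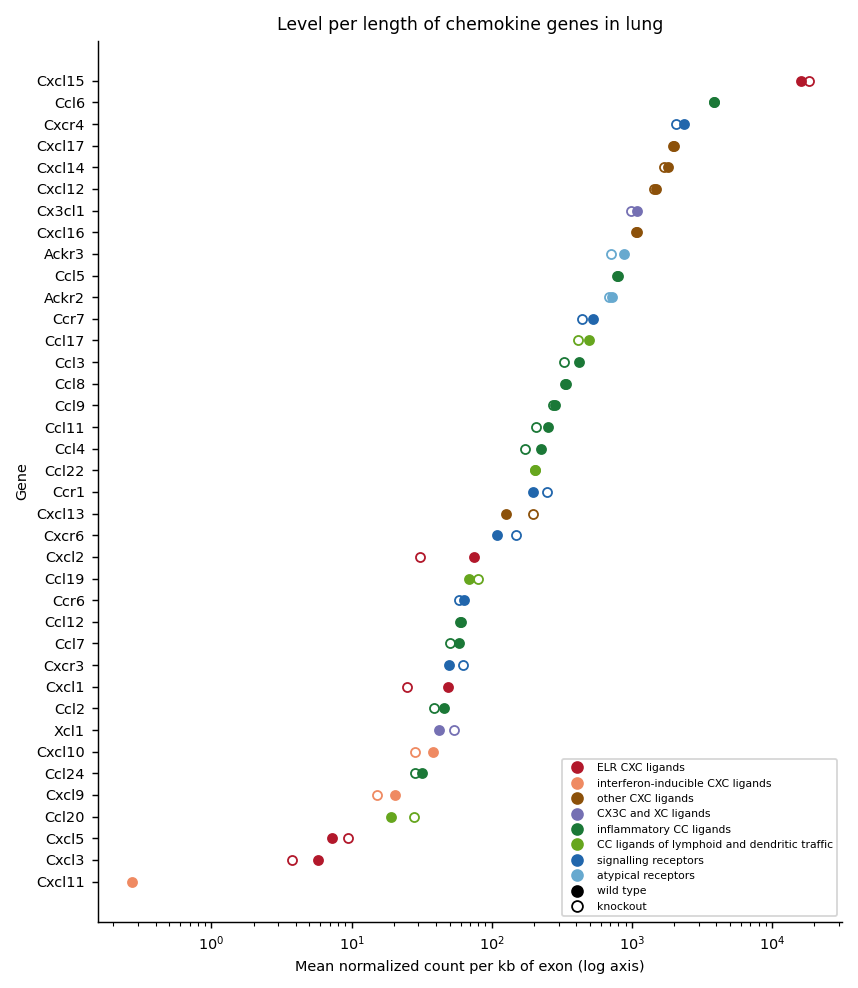
Mean normalized count per kb of annotated exon (log axis) for the 38 genes, ordered by wild type and colored by role; filled symbols are wild type and open symbols knockout, and the knockout value of Cxcl11, listed at 0, is not drawn. Cxcl15 stands apart at the top, and Cxcl2 and Cxcl1 show the widest gaps to the left of wild type.

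Of these abundant ligands, Cxcl12 had means of 12192 and 11693 normalized counts, Cxcl14 of 3299 and 3088, Cxcl16 of 3212 and 3299, and Cxcl17 of 1520 and 1497, with adjusted p-values from 0.967 to 0.997 in the authors' deposited table. Their log2 ratios lay between -0.10 and 0.04. For Cxcl12 the 95% interval of the shrunken log2 fold change ran from -0.17 to 0.07. Cx3cl1 had means of 4244 and 3846, with an unadjusted p of 0.0558 and an adjusted p of 0.613 in the authors' deposited table. Xcl1, the lymphotactin of T and natural killer cells, had wild type libraries at 27.6, 12.9 and 25.0 and knockout libraries at 14.6, 34.3 and 34.8. Those groups overlapped (adjusted p = 0.982 in the authors' deposited table).

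Cxcl13, which draws B cells into follicles, had the largest log2 ratio among the 11 tested genes with a higher knockout mean. It had 146 normalized counts in wild type and 227 in knockout, 1.56-fold more, and was not called (shrunken log2 fold change 0.27 ± 0.084 SE, unadjusted p = 0.00108, adjusted p = 0.0739 in the authors' deposited table). Its wild type mean can be made of 4 sets of reads, so its libraries could not be resolved. All 5 B cell markers had lower knockout means, summing to 7014 and 6373 normalized counts. By DESeq2, 0 were called and 3 were lower at an unadjusted p under 0.05, against 4.04% of all tested rows. Mesothelium, the lining of the lung surface, can also make Cxcl13, and its 4 markers summed to 506 normalized counts in wild type and 3593 in knockout, none of them at 0. None of the 4 had a p-value in the authors' deposited table. For Wt1, whose libraries could be derived, wild type stood at 10.8, 12.9 and 3.12 and knockout at 27.3, 134 and 35.8, so 1 knockout library was far above the others. The part of mesothelial cells in Cxcl13 was not tested.

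The inflammatory CC ligands, which recruit monocytes, eosinophils and T cells, had 10 of 11 lower means in knockout and 0 called by the authors' DESeq2 comparison, and none reached an unadjusted p under 0.05. Their median log2 ratio was -0.17. In the first chromosome 11 group (82035571 to 82116799), Ccl2, the main monocyte chemokine, had wild type libraries at 65.95, 41.7 and 46.8 normalized counts and knockout libraries at 34.1, 53.9 and 44.0. Ccl7, its neighbour and a ligand of the same receptor Ccr2, had 63.0, 35.8 and 42.7 in wild type and 41.0, 45.1 and 34.8 in knockout. In both genes wild type library A was the highest and the other libraries overlapped between the genotypes. Without wild type A the log2 ratio of Ccl7 turned from -0.23 to 0.04. Wild type A was also the highest of its group for Cxcl5, Xcl1 and Ccl24, so for 5 of the 9 tested genes whose libraries could be derived. Wild type B was the highest for 2 and wild type C for 2. The share over all rows was not counted, so these counts do not set library A apart.

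The other genes of that group also gave no call. Ccl11, or eotaxin, had means of 274 and 225 (adjusted p = 0.810 in the authors' deposited table). Ccl12 stood at 30.5, 24.8 and 41.6 in the wild type libraries and 35.1, 36.2 and 24.6 in the knockout libraries, with means of 32.3 and 32.0. Its log2 ratio of -0.02 was 0.21 without wild type C and 0.14 without knockout C. Ccl8, at the end of the group, had means of 170 and 172. Ccl24, another eotaxin, lies on chromosome 5 away from the others and had 55.1, 28.8 and 40.6 in wild type and 38.04, 52.9 and 19.4 in knockout. The spread within each genotype was wider than the difference of the means, 41.5 ± 13.2 and 36.8 ± 16.8 (SD, n = 3 each), and the log2 ratio of -0.17 was 0.08 without wild type A and 0.13 without knockout C.

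In the second chromosome 11 group (83525778 to 83664683), the neighbours Ccl3 and Ccl4, macrophage inflammatory proteins that recruit monocytes and T cells, had log2 ratios of -0.36 and -0.38. Ccl3 had means of 322 and 251.8 and Ccl4 of 148 and 114 (unadjusted p = 0.109 and 0.187, adjusted p = 0.754 and 0.865 in the authors' deposited table). Ccl6, Ccl9 and Ccl5 in the same group were close to equal. Ccl6 had means of 6955 and 6867, Ccl9 of 858 and 835 and Ccl5, the T cell and platelet chemokine also called RANTES, of 758 and 751. For Ccl6 the 95% interval of the authors' shrunken log2 fold change ran from -0.12 to 0.09.

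**Figure D4:**
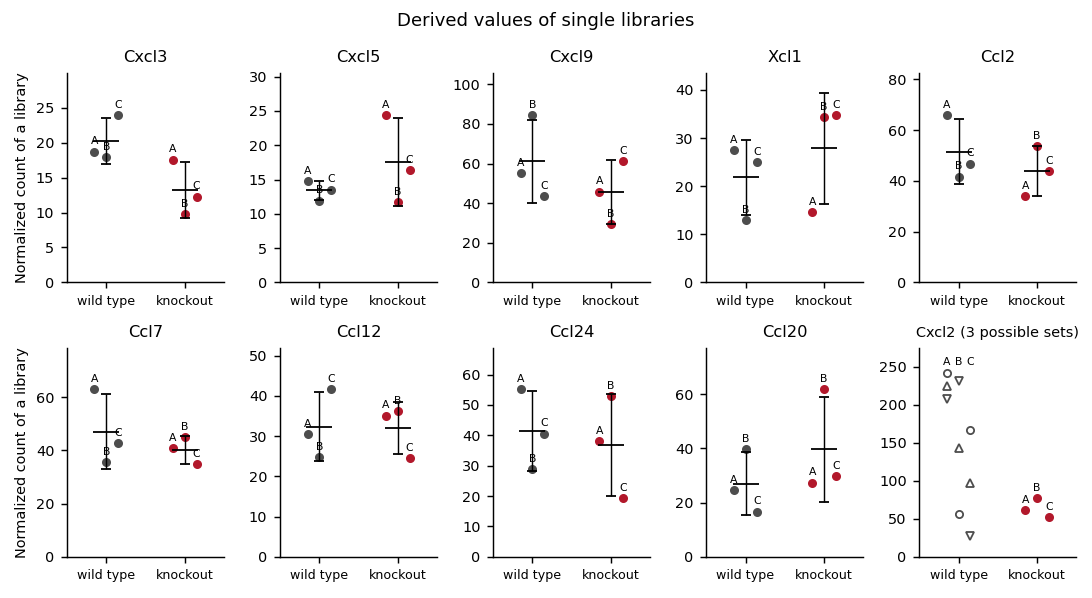
Derived normalized counts of libraries A, B and C of each genotype for the 9 tested genes with exactly 1 possible set of reads, with mean and SD (bars), and for Cxcl2, whose wild type values are drawn for each of the 3 possible sets (circles, upward and downward triangles). The genotypes overlap in 8 of the 9 genes and are separate in Cxcl3; wild type A of Cxcl2 lies at 207 or above in every set.

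The CC ligands of lymphoid and dendritic cell traffic had 0 called members by the authors' DESeq2 comparison, and none reached an unadjusted p under 0.05. Ccl17 and Ccl22, the ligands of Ccr4 made by dendritic cells, flank Cx3cl1 on chromosome 8. Ccl17 had means of 256 and 211 (adjusted p = 0.757 in the authors' deposited table). Ccl22 had means of 474 and 473. Dendritic cell markers summed to 4210 and 4203, with 0 called. Ccl20, the epithelial ligand of Ccr6, had wild type libraries at 24.6, 39.7 and 16.6 and knockout libraries at 27.3, 61.7 and 29.7. Its means of 27.0 ± 11.7 and 39.6 ± 19.2 (SD, n = 3 each) differed by less than the spread of the knockout libraries.

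Ccl19, a ligand of Ccr7 that guides dendritic cells and T cells, stood in 6 rows of the table, 4 of them tested. GENCODE M21 holds 1 coding Ccl19 gene on chromosome 4 (42754525 to 42756577) and pseudogene copies nearby, and how reads were divided among such copies is not given in the sources used here. Its most abundant row had means of 59.98 and 69.2, and the next rows 43.9 and 43.7, 35.2 and 32.1, and 14.8 and 11.5. The rows lay on both sides of equality and none was called (the lowest adjusted p was 0.975 and the lowest unadjusted p 0.411 in the authors' deposited table). For the most abundant row, the log2 ratio of 0.21 turned negative under some sets of reads without knockout B (down to -0.81) or knockout C (down to -0.73).

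The 8 receptors of the list gave 0 calls by the authors' DESeq2 comparison, with 2 higher and 3 lower in knockout at an unadjusted p under 0.05. Of all tested rows, 4.43% were higher and 4.04% lower at this p. Ccr1, the receptor for Ccl3, Ccl5, Ccl6 and Ccl9 on monocytes and neutrophils, had means of 555 and 699 (shrunken log2 fold change 0.24 ± 0.076 SE, adjusted p = 0.0978 in the authors' deposited table). The neutrophil marker sum given above was higher as well, and the part of neutrophils in Ccr1 was not tested. Cxcr6, the Cxcl16 receptor of resident T and innate lymphocytes, had means of 211 and 287 (0.26 ± 0.084 SE, adjusted p = 0.108 in the authors' deposited table). Markers of T cells summed to 2076 in wild type and 2060 in knockout and those of natural killer cells to 2498 and 2581. None of these markers was at 0, and by DESeq2 0 of the 12 were called and none had an unadjusted p under 0.05.

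The receptors with lower means were Ccr7, Cxcr4, Ccr6 and the atypical receptors. Ccr7, of migrating dendritic cells and naive T cells, had means of 1035 and 868 (shrunken log2 fold change -0.18 ± 0.077 SE, unadjusted p = 0.0202, adjusted p = 0.410 in the authors' deposited table). Cxcr4, the Cxcl12 receptor, had 4278 and 3746 (shrunken log2 fold change -0.15 ± 0.072 SE, unadjusted p = 0.0397, adjusted p = 0.544 in the authors' deposited table). Ackr3, which takes up Cxcl12 and Cxcl11 without G protein signalling, had 2948 and 2384, 1.24-fold lower (shrunken log2 fold change -0.22 ± 0.077 SE, unadjusted p = 0.0045, adjusted p = 0.184 in the authors' deposited table). Ackr2, a scavenger of inflammatory CC ligands, had 2259 and 2148. Endothelial markers, measured because Ackr3 and Cxcr4 are also made by vessels, summed to 103062 and 98922 with all 5 lower by their means, 0 called and 1 at an unadjusted p under 0.05 by DESeq2. The part of endothelial cells in these receptors was not tested. Ccr6, the Ccl20 receptor, had 146 and 136 normalized counts.

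**Figure D5:**
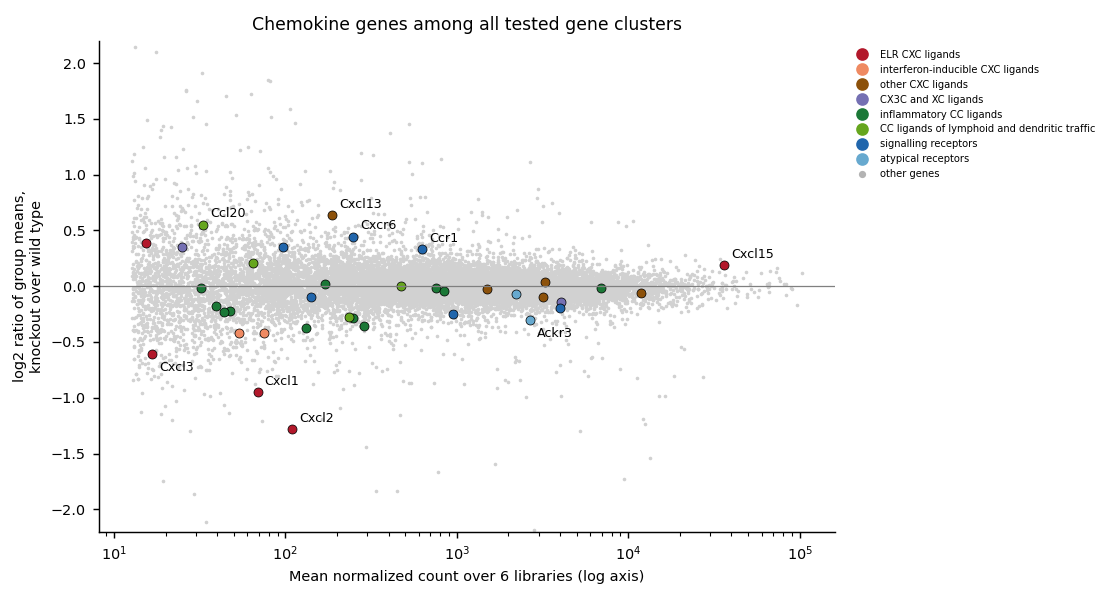
Knockout over wild type as the log2 ratio of group means (vertical) and mean normalized count of the 6 libraries on a log axis (horizontal), for all tested rows (grey) and the 37 tested chemokine genes (colored by role); 6 rows lie beyond the drawn range of 2.2 in either direction. Cxcl2 and Cxcl1 lie below the bulk of rows of like mean, Cxcl13 above it, and most of the abundant chemokine genes within it.

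Of the listed genes, 4 lie on chromosome 1, which carries the lincRNA-Cox2 gene (RefSeq places it at 150159043 to 150164948 of GRCm38). Xcl1 is 14.8 Mb away, Cxcr4 21.6 Mb, Ackr3 59.9 Mb and Ccl20 67.04 Mb, and none of them was called. The called gene, Cxcl2, is on chromosome 5.

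Chemokine system genes outside the list and the signalling chain behind the receptors gave 1 call among 21 tested genes and 2 among 35, where 1.09% of all tested rows were called. Of the 21 tested further ligands and receptors, Cxcr2 was called, 3 more were higher at an unadjusted p under 0.05 (Ccr2, Ccr3 and Xcr1), and Ccr8, a receptor of type 2 T cells, was lower (33.5 and 17.5 normalized counts; the authors' deposited table gives an adjusted p of 0.426). Ccr3, Xcr1 and Ccr8 are named here after their values were seen. At an unadjusted p under 0.05, 4.43% of all tested rows were higher and 4.04% lower. The median log2 ratio over the 21 was 0.12. Of the 35 tested genes of receptor signalling, from G protein subunits and arrestins to the RGS proteins that end the signal, 2 were called. Rgs18 was 1.52-fold higher and Rgs2 1.69-fold lower (the authors' deposited table gives adjusted p-values of 0.0175 and 2.48e-19), and the median log2 ratio was -0.01. These lists were also written with earlier results known.

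A missed threshold does not show equal levels. Over the 36 tested genes that were not called, the 95% intervals of the authors' shrunken log2 fold changes reached down to -0.37 and up to 0.44, and shrinkage pulls the values of low genes towards 0.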

How the data were processed

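Whole lung RNA of 6 mice, 3 wild type and 3 lincRNA-Cox2 knockout, was sequenced as 50 bp paired ends with the TruSeq RNA kit v2, whose reads do not mark strand, from 500 ng of total RNA (mean RNA integrity number 9.45), per the labels' protocols. The build mm10 and the tools STAR 2.5.1b, Bowtie2, SAMtools, bedtools and DESeq2 stand, with no role or order, in the submitters' processing notes. No counting rule or strand setting is given in the sources used here. Per the file headers, the authors deposited for each row the mean normalized count of all libraries and of each genotype (a signal, gene counts over size factors), a shrunken log2 fold change with its standard error, the test statistic (a score), and p-values, raw and adjusted. The direction, knockout over wild type, was read from the group means of lincRNA-Cox2.

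Without library counts, no model of counts was fitted. Folds are ratios of the authors' group means. Of several rows with 1 symbol, that of the highest mean was taken. Reads of single libraries were derived from the printed group means by listing every set of whole reads within the printed rounding, with relative size factors from 0.961 to 1.025 (scipy 1.17.1, Python 3.11.15). Exactly 1 set was found for all means above 0 and up to 30 (4550 in wild type, 4518 in knockout), and 11.2% of the tested rows had 1 set in both genotypes. The derivation was tested on simulated data. Exon lengths are from GENCODE M21, and sequences from RefSeq on GRCm38.p6. Intervals of 95% come from the authors' standard errors by the normal approximation. No chance test between libraries was run; the smallest 2-sided exact permutation p for 3 against 3 is 0.10. The replicates are taken as separate mice, which the labels do not state for each library.

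The genes, gene lists and alternatives were chosen with earlier results of these data known. The rule for named genes names all 38 genes, gives full values for those called or at an unadjusted p under 0.05, the 5 highest per length and the largest changes at a mean of at least 50, and names other genes only from the fixed lists.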

Additional observations from a re-analysis of the deposited data

How the results depend on the processing

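Cxcl2 was the gene called among the 38 at an adjusted p threshold of 0.01, with adjustment over all 20477 rows with a p-value, and with adjustment over rows with a mean of at least 50. At a threshold of 0.1 the count was 3, with Cxcl13 and Ccr1 added. Over all rows, 184 were called, against 300 at 0.1 and 101 at 0.01. The median log2 ratio of the chemokine genes stayed between -0.07 and -0.05 under the 5 alternatives run. Of 176 values of single genes under other settings, 166 kept their sign, and 10 turned. All 10 came from leaving out 1 library. The rest include shrunken values and values with a pseudocount. A pseudocount cannot turn a sign and shrinkage only pulls towards 0, so the 166 overstate how far the signs were tried. For 6 of 13 genes the sign could turn when 1 library was left out: Cxcl1, Cxcl10, Ccl7, Ccl12, Ccl24 and Ccl19. For Cxcl1, Cxcl10 and Ccl19 this rests on very uneven sets of reads that the printed means allow; listing 2 to 4 sets was an alternative added after the data were seen. Fits of library values with limma, and the median of all genes without 1 library, were not run, since 28 of the 37 tested genes have no single set of reads. No paired analysis was possible because the labels give no pairing of knockout with wild type mice and the table no library columns.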

Other observations

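A block of receptor genes on chromosome 9 (123806475 to 124113557, mm10) stood out after its values were seen. From Cxcr6 to Ccr2, 5 neighbouring receptor genes had higher means in knockout, each at an unadjusted p under 0.05 and none called at an adjusted p under 0.05 in the authors' deposited table. Cxcr6 had a log2 ratio of 0.44, Xcr1, the Xcl1 receptor of cross-presenting dendritic cells, 0.39, Ccr1 0.33, Ccr3, the eotaxin receptor of eosinophils, 0.40, and Ccr2, the Ccl2 receptor of classical monocytes, 0.33. Ccr1l1, between Ccr1 and Ccr3, was too low to be tested, with means of 5.03 and 5.29. Ccr9, the neighbour before Cxcr6, had a log2 ratio of -0.08. Their listed ligands lay on both sides: Ccl2, Ccl7, Ccl11, Ccl24 and Ccl3 had log2 ratios from -0.36 to -0.17, Ccl5, Ccl6, Ccl8, Ccl9 and Ccl12 from -0.04 to 0.02, Cxcl16 had 0.04 and Xcl1 0.35, and by DESeq2 none of these ligands had an unadjusted p under 0.05.

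Ccr8, also named after its values were seen, had libraries that did not overlap between the genotypes, as did 16.5% of the tested rows with derived libraries. Its wild type libraries stood at 40.4, 27.8 and 32.3 normalized counts and its knockout libraries at 14.6, 19.6 and 18.4, although the authors' adjusted p was 0.426. Ccl1, its ligand, had 8 reads over the wild type libraries and 1 over the knockout libraries, too few to test.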
